A study of Mus musculus with 9 samples.

Results

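The genes described here are 48 mouse genes of the NRF2, glutathione, thioredoxin and NADPH systems, chosen by symbol from a deposited table of 56748 genes. RNA sequencing gave gene counts in 9 libraries of chondrocytes, the matrix-making cells of cartilage. They were freed with collagenase D from knee cartilage of wild-type (WT) mice and cultured with serum. There were 3 libraries of cells given IL-1β and recombinant SFRP5, 3 of cells given IL-1β alone and 3 of control cells. They are called SFRP5, IL-1β and control libraries from here on, and every SFRP5 library also had IL-1β. IL-1β is a cytokine that provokes an inflammatory and matrix-degrading state in cartilage cells, and SFRP5 is a secreted frizzled-related protein known to bind Wnt proteins. The labels give no dose, treatment time, age or sex, and no group had SFRP5 without IL-1β. They do not say whether libraries of a group came from separate animals or cultures, so the p-values reflect only library-to-library spread, possibly technical.

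NRF2, encoded by Nfe2l2, is a transcription factor that raises antioxidant and detoxifying genes. In resting cells KEAP1 holds it and hands it to a ubiquitin ligase for degradation, and oxidants or electrophiles that modify KEAP1 set it free. Its targets make and recycle glutathione, reduce thioredoxin, supply NADPH as the common reductant, and conjugate reactive compounds. Chondrocytes live at low oxygen, and reactive oxygen and nitrogen species made after IL-1β are widely studied in cartilage breakdown.

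Total counts ranged from 15795985 to 20688963 per library, and all 48 genes passed the low-count filter with 15502 genes in all. Levels are CPM, the counts scaled to the library size after TMM normalisation, and 3 counts in a library equalled 0.135 to 0.195 CPM. Values of 3 libraries follow the order of their numbers, which are not said to pair libraries across groups. The chondrocyte markers were abundant in every group, with a summed level of 26663 to 28047 CPM in SFRP5, 21490 to 22690 CPM in IL-1β and 96510 to 98676 CPM in control libraries, and all 8 fell with IL-1β. Of 8 macrophage markers, 5 could be tested. Their summed level over all 8 was 36.4 to 41.5 CPM in SFRP5, 54.4 to 58.3 CPM in IL-1β and 13.4 to 14.6 CPM in control libraries. With IL-1β 4 of the 5 rose, and 3 of the 5 fell when SFRP5 was added. Cd68, Cd14 and Mrc1 rose with IL-1β, as did Csf1r just past the threshold (adjusted p = 0.0498 in edgeR's test). Cd14, Mrc1 and Csf1r fell with SFRP5, and Lyz2 passed neither test. Mean levels of Cd14 were 18.5 CPM in SFRP5, 27.4 CPM in IL-1β and 1.25 CPM in control libraries. Those of Csf1r were 0.914, 2.27 and 1.51 CPM in the same order. Ptprc, Adgre1 and Itgam were too low to test. The 5 neutrophil markers summed to 1.06 to 2.01 CPM in SFRP5, 1.27 to 1.64 CPM in IL-1β and 0 to 0.151 CPM in control libraries. S100a8, the 1 of them that could be tested, had 72 counts in SFRP5, 75 in IL-1β and 0 in control libraries, and rose with IL-1β (adjusted p = 2.35e-08), while S100a9 and Ly6g were at 0 counts throughout. The 4 endothelial markers summed to 2.24 to 3.25 CPM in SFRP5, 3.33 to 4.19 CPM in IL-1β and 0.361 to 0.507 CPM in control libraries. Cdh5, with 42 counts in SFRP5, 87 in IL-1β and 1 in control libraries, rose with IL-1β (adjusted p = 1.81e-08) and fell with SFRP5 (adjusted p = 0.0308). Tek, with 94 counts in SFRP5, 68 in IL-1β and 18 in control libraries, rose with IL-1β (adjusted p = 0.000139). The sum of the 4 erythroid markers was at most 0.101 CPM. The part of these cells in the results was not tested. In bulk RNA, fewer cells of a type and less RNA per cell cannot be told apart.

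IL-1β raised most of the 48 genes, and adding SFRP5 to IL-1β lowered 24 of them. The greatest decreases were those of Slc7a11 (cystine import), Prdx6 (peroxide removal), Srxn1 (peroxiredoxin repair) and Txnrd1 (thioredoxin reduction). Vnn1, which IL-1β raised strongly, was higher still with SFRP5. With IL-1β against control, 36 of 48 rose, 8 fell and 4 did not pass the test (edgeR's quasi-likelihood test, adjusted p under 0.05). Among all 15502 genes tested, 38.5% rose and 40.4% fell. The 2 groups did not overlap for 44 members, and for 80% of all genes. The members' median log2 change was 1.29, and the median over all tested genes was −0.03. At least 2-fold increases were found for 28 members, or 58.3%, against 18.4% of all genes tested, and at least 2-fold decreases for 3, against 21.2%. The 24 members that fell with SFRP5 against IL-1β were 50% of the 48, whereas 15.7% of all tested genes fell. The 7 that rose were 14.6% of the members, close to the 15.6% of all genes that rose. At least 2-fold decreases were found for 11 members, or 22.9%, against 1.91% of all genes tested, and at least 2-fold increases for Gstt1 and Vnn1, against 2.21%. SFRP5 and IL-1β libraries did not overlap for 33 members, and for 40.8% of all genes. These comparisons share the IL-1β libraries. The members were chosen with earlier results of these data known, so their shares are a description and no independent test.

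**Figure D1:**
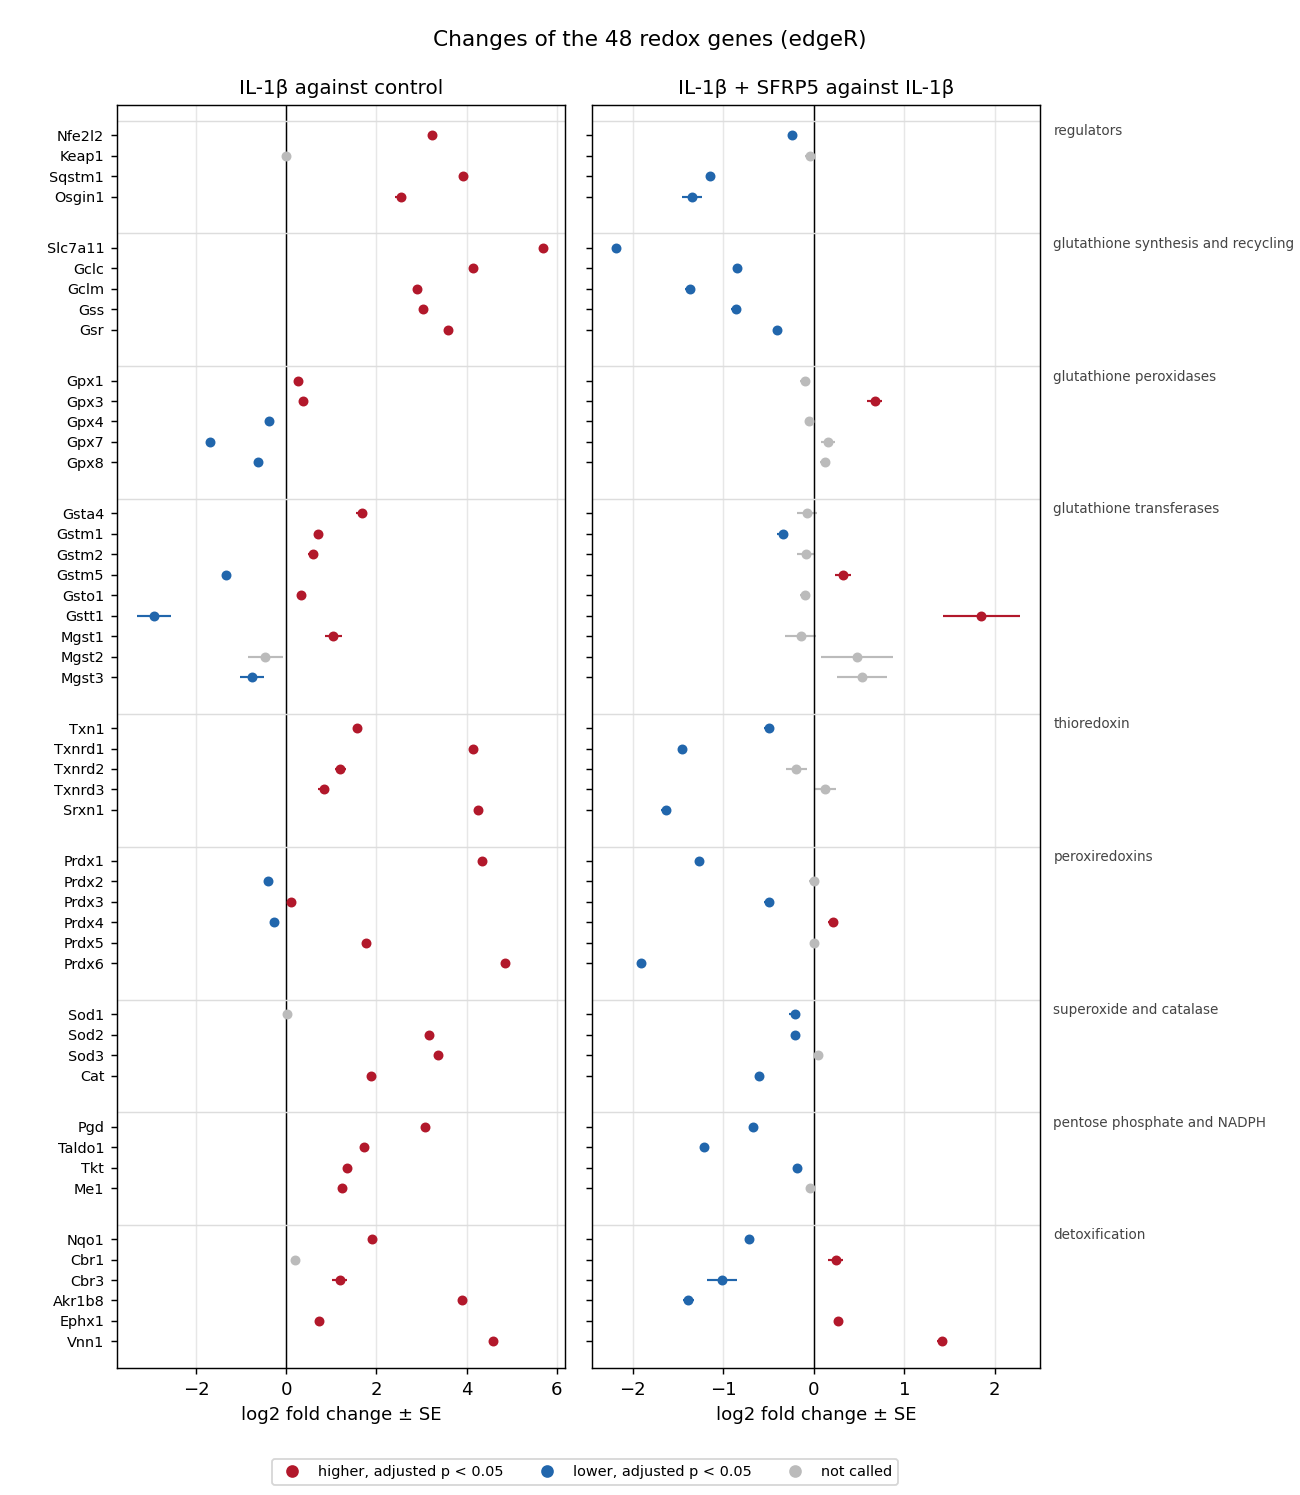
Log2 fold change ± SE (x axis) of each of the 48 genes (rows, grouped by branch) for IL-1β against control (left) and for the addition of SFRP5 to IL-1β (right), with red for higher, blue for lower and grey for genes that did not pass an adjusted p of 0.05. Each x axis has its own range. On the right, Slc7a11 is farthest to the left and Gstt1 and Vnn1 are farthest to the right.

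The antioxidant response element bound by NRF2 has the core TGACNNNGC, which was searched on both strands in 300-base windows from 250 bases before to 50 bases after gene starts. RefSeq windows on GRCm38.p6 existed for 42 of the 48 genes. The core was in a window of 10 of these 42, or 23.8%, and in 14% of all 27025 genes with windows. The 10 were Nfe2l2, Gclm, Gstm5, Mgst1, Txnrd1, Srxn1, Prdx1, Sod1, Pgd and Me1. The longer form TGACTCAGC, which contains the AP-1 site TGACTCA and so overlaps it, was in the windows of Prdx1 and Me1 and in 0.503% of all genes. The AP-1 site itself was found for 6 members, or 14.3%, and for 5.95% of all genes. A κB motif, GGGACTTTC, was in no member's window and in 0.403% of all genes. A match is a description of these letters and not evidence of binding. Only these letters and windows were searched, so a gene without a match may hold other forms or sites farther away. The windows of 5 genes from 4 branches are printed because they hold the core and belong to genes whose changes differed: SFRP5 lowered all of them but Me1. They were chosen after the values were seen. Of the core holders not printed, Nfe2l2, Sod1 and Pgd also fell with SFRP5, Gstm5 rose and Mgst1 did not pass the test. Capitals mark the core in either orientation. AP-1 sites outside the core are left in lower case, as in Prdx1 at −237 and in Srxn1 at −102 and −45 from the gene start. The windows lie at chr4:116685349-116685648 (plus strand) for Prdx1, chr9:86695865-86696164 (minus) for Me1, chr10:82858956-82859255 (plus) for Txnrd1, chr2:152105274-152105573 (plus) for Srxn1 and chr3:122245307-122245606 (plus) for Gclm, each written 5′ to 3′ on the gene's strand.
Prdx1: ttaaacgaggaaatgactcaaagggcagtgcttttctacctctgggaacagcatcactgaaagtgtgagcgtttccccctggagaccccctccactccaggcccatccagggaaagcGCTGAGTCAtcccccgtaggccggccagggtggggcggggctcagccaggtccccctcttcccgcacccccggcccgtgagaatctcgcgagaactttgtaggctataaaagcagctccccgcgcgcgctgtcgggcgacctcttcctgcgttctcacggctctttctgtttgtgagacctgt
Me1: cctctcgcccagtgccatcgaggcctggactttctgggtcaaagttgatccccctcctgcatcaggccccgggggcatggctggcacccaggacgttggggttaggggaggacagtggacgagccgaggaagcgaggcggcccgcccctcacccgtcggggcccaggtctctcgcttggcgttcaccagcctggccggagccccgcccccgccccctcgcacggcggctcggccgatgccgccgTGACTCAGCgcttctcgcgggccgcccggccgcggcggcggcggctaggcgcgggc
Txnrd1: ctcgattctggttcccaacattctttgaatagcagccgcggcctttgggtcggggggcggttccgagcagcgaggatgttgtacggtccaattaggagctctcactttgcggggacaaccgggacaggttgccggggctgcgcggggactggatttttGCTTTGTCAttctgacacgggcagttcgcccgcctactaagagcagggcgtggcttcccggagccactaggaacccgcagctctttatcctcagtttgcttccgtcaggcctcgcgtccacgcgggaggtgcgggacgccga
Srxn1: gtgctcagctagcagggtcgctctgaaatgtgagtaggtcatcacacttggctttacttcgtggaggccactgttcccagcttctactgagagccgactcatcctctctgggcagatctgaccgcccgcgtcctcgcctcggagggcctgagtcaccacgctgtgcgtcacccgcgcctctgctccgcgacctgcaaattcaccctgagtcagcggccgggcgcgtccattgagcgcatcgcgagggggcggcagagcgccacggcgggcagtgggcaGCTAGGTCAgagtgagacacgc
Gclm: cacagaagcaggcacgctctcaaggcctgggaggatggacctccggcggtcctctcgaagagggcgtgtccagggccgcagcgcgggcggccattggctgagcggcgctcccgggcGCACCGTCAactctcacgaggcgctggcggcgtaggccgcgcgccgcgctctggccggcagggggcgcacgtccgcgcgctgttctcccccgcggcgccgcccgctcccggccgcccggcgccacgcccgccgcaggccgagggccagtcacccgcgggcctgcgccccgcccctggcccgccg

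Of 4 regulators 3 rose with IL-1β and fell with SFRP5, and Keap1 passed neither test. Nfe2l2 (ENSMUSG00000015839) was at 655, 646 and 609 CPM in SFRP5, 777, 755 and 719 CPM in IL-1β and 76.8, 80.6 and 81.4 CPM in control libraries. It rose by 3.24 ± 0.04 (SE) on the log2 scale with IL-1β (edgeR, adjusted p = 9.63e-28), which is 9.42-fold, and fell by only 0.24 ± 0.04 when SFRP5 was added (adjusted p = 3.65e-05). The 3 groups did not overlap. Keap1 (ENSMUSG00000003308), the repressor of NRF2, stood at 60.05, 53.998 and 60.6 CPM in SFRP5, 61.8, 59.04 and 59.4 CPM in IL-1β and 61.8, 58.1 and 60.9 CPM in control libraries. All 3 groups of Keap1 values overlapped and no comparison passed the test, although with upper-quartile scaling Keap1 was lower by 0.15 with IL-1β (adjusted p = 0.011). That scaling moved the median of all genes by −0.15, about as far as Keap1 itself. Sqstm1 (ENSMUSG00000015837) encodes p62, an autophagy receptor that binds KEAP1 and is itself an NRF2 target. It was at 2511, 2456 and 2173 CPM in SFRP5, 5560.4, 5379 and 4835 CPM in IL-1β and 340.4, 355 and 347 CPM in control libraries. Sqstm1 thus rose by 3.92 ± 0.05 with IL-1β (adjusted p = 5.13e-28) and fell by 1.14 ± 0.05 with SFRP5 (adjusted p = 5.56e-16). Osgin1, an oxidative-stress-induced growth inhibitor, was at 8.83 ± 1.09 CPM in SFRP5, 22.6 ± 2.82 CPM in IL-1β and 3.88 ± 0.298 CPM in control libraries (mean ± SD, n = 3). It fell by 1.34 ± 0.12 with SFRP5 (adjusted p = 9.05e-10).

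All 5 genes of glutathione supply rose with IL-1β, by 2.89 to 5.68 on the log2 scale, and all 5 fell with SFRP5. Slc7a11 (ENSMUSG00000027737) is the cystine importer that brings in the limiting amino acid. It was at 324, 311 and 301 CPM in SFRP5, 1433, 1418 and 1409.5 CPM in IL-1β and 28.5, 27.96 and 26.4 CPM in control libraries. Its rise with IL-1β and its drop of 2.19 ± 0.04 with SFRP5 (adjusted p = 2.09e-23), which is 4.55-fold, were both the greatest in size among the 48 genes in these 2 comparisons. Gclc (ENSMUSG00000032350), the catalytic subunit of glutamate-cysteine ligase, was at 228, 217 and 213 CPM in SFRP5, 404, 389.9 and 393 CPM in IL-1β and 23.1, 22.7 and 21.4 CPM in control libraries. Gclm (ENSMUSG00000028124), the modifier subunit of the same enzyme, was at 83.5, 87.7 and 80.2 CPM in SFRP5, 224, 218 and 209 CPM in IL-1β and 27.2, 28.9 and 31.4 CPM in control libraries. Neither gene's groups overlapped. Gclc rose by 4.14 ± 0.05 and fell by 0.85 ± 0.04 with SFRP5, whereas Gclm rose by 2.89 ± 0.06 and fell by 1.37 ± 0.05 (adjusted p at most 1.58e-14 in edgeR's test). Per kilobase of gene length, Gclm made up 18.6% ± 0.780 of the summed level of the 2 subunits in SFRP5, 24.7% ± 0.521 in IL-1β and 43.8% ± 2.73 in control libraries (mean ± SD, n = 3). Gss, which adds glycine to complete glutathione, was at 126 ± 7.62 CPM in SFRP5, 229 ± 10.97 CPM in IL-1β and 28.03 ± 0.788 CPM in control libraries. Gsr, the reductase that returns oxidised glutathione to its reduced form with NADPH, kept most of its rise. It was at 151, 132 and 145 CPM in SFRP5, 197, 186 and 185 CPM in IL-1β and 15.9, 15.4 and 15.7 CPM in control libraries, and fell by 0.41 ± 0.05 with SFRP5 (adjusted p = 2.55e-07).

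The glutathione peroxidases, a family named for spending glutathione on peroxides, did not follow the supply genes. With IL-1β 2 of 5 rose, or 40%, and 3 fell, or 60%, against 38.5% and 40.4% of all genes tested. No rise reached 2-fold. With SFRP5 1 rose, or 20%, against 15.6% of all genes. The other 4 had an adjusted p of 0.0904 to 0.426 with SFRP5 in edgeR's test, and Gpx8 was called without SFRP5 library 2 (0.0495). Gpx4 (ENSMUSG00000075706), which reduces lipid peroxides in membranes and guards against ferroptosis, had the highest level per kilobase of all 48 genes in control libraries, 130 CPM per kilobase. It was at 169.6, 168 and 164 CPM in SFRP5, 171, 180.1 and 168 CPM in IL-1β and 217, 224 and 233 CPM in control libraries, a drop of 0.38 ± 0.04 with IL-1β (adjusted p = 1.21e-08). Gpx1, the main cytosolic peroxidase, was at 81.4 ± 1.21 CPM in SFRP5, 87.3 ± 5.99 CPM in IL-1β and 73.1 ± 4.08 CPM in control libraries. Its rise of 0.25 ± 0.05 with IL-1β (adjusted p = 0.00012) was not called with upper-quartile scaling (0.11, adjusted p = 0.0628). The endoplasmic reticulum members fell. Gpx7 (ENSMUSG00000028597) was at 17.98, 18.4 and 17.03 CPM in SFRP5, 16.7, 16.5 and 14.8 CPM in IL-1β and 52.6, 49.4 and 53.8 CPM in control libraries, a drop of 1.70 ± 0.07 with IL-1β (adjusted p = 2.25e-17). Gpx8 fell by 0.63 ± 0.05 with IL-1β (adjusted p = 7.57e-11). Gpx3 (ENSMUSG00000018339), the secreted peroxidase, was the branch member that rose further with SFRP5. It was at 31.3, 32.6 and 35.4 CPM in SFRP5, 22.3, 21.6 and 18.2 CPM in IL-1β and 16.4, 14.97 and 16.4 CPM in control libraries, and SFRP5 raised it by 0.68 ± 0.08 (adjusted p = 3.9e-07).

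Glutathione transferases, which join glutathione to reactive compounds, went both ways. With IL-1β 5 of 9 rose, or 55.6%, and 3 fell, or 33.3%, against 38.5% and 40.4% of all genes tested. With SFRP5 2 rose, or 22.2%, and 1 fell, or 11.1%, against 15.6% and 15.7% of all genes. Gsta4 (ENSMUSG00000032348), which acts on the lipid peroxidation product hydroxynonenal, was at 14.6, 15.1 and 12.1 CPM in SFRP5, 13.6, 15.001 and 15.4 CPM in IL-1β and 4.59, 4.28 and 4.97 CPM in control libraries. It rose by 1.67 ± 0.12 with IL-1β (adjusted p = 3.37e-12), and the SFRP5 and IL-1β values overlapped. Gstm1, Gstm2 and Gstm5 are close paralogs, and the counting tool divides reads that match several genes, so their split is uncertain. Gstm1 was at 43.5 ± 1.89 CPM in SFRP5, 55.2 ± 4.29 CPM in IL-1β and 33.7 ± 1.46 CPM in control libraries, and fell by 0.34 ± 0.06 with SFRP5 (adjusted p = 9.73e-05). Gstm5 ran the other way, at 17.04, 16.5 and 16.9 CPM in SFRP5, 14.99, 13.01 and 12.3 CPM in IL-1β and 32.7, 33.7 and 35.3 CPM in control libraries. Its drop with IL-1β was 1.34 and its rise with SFRP5 0.33 ± 0.09 (adjusted p = 0.00539). Gstm2 rose by 0.60 with IL-1β and Gsto1, an omega-class member, by 0.33. Gstt1, a theta-class member, fell by 2.92 ± 0.38 with IL-1β and rose by 1.85 ± 0.42 with SFRP5 (adjusted p = 0.00138), with 69 counts in SFRP5, 18 in IL-1β and 170 in control libraries. These are few reads, and its single libraries were at 1.67, 1.23 and 0.943 CPM in SFRP5, 0.486, 0.181 and 0.398 CPM in IL-1β and 2.83, 3.29 and 2.08 CPM in control. Among the microsomal members Mgst1 rose by 1.05 with IL-1β to 5.24 ± 0.221 CPM. Mgst3 fell by 0.76 ± 0.27 (adjusted p = 0.0117), a call lost without control library 2 (0.0587) or IL-1β library 3 (0.0724). Mgst2, at 0.951 ± 0.215 CPM in SFRP5, 0.672 ± 0.0624 CPM in IL-1β and 0.934 ± 0.303 CPM in control libraries, passed no test.

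In the thioredoxin branch all 5 genes rose with IL-1β and 3 fell with SFRP5. Txnrd1 (ENSMUSG00000020250), the cytosolic selenoenzyme that reduces thioredoxin with NADPH, was at 507, 502 and 492 CPM in SFRP5, 1394, 1378 and 1334 CPM in IL-1β and 77.1, 77.03 and 78.3 CPM in control libraries. It rose by 4.14 ± 0.04 with IL-1β (adjusted p = 5.98e-31) and fell by 1.45 ± 0.03, or 2.73-fold, with SFRP5 (adjusted p = 1.08e-20). Srxn1 (ENSMUSG00000032802), sulfiredoxin, which repairs over-oxidised peroxiredoxins, had the same order of groups with no overlap. Its values were 326, 328 and 288 CPM in SFRP5, 1047, 1002.9 and 868 CPM in IL-1β and 50.1, 50.4 and 51.9 CPM in control libraries, a rise of 4.26 ± 0.06 and then a drop of 1.63 ± 0.06 (adjusted p = 1.24e-17). Txn1 is thioredoxin itself. It was at 141, 138 and 126 CPM in SFRP5, 197, 196 and 179 CPM in IL-1β and 62.5, 63.3 and 66.3 CPM in control libraries, up by 1.58 ± 0.05 with IL-1β and down by 0.50 ± 0.05 with SFRP5 (adjusted p = 1.45e-08). Both other reductases also rose with IL-1β. Txnrd2, the mitochondrial form, was at 12.3 ± 1.92 CPM in SFRP5, 14.2 ± 1.17 CPM in IL-1β and 6.19 ± 0.365 CPM in control libraries. Txnrd3, a form best known from testis, was at 12.6 ± 1.48 CPM in SFRP5, 11.6 ± 1.02 CPM in IL-1β and 6.52 ± 1.08 CPM in control libraries. With SFRP5 their log2 differences were −0.20 ± 0.12 and 0.12 ± 0.12, neither of which passed the test (adjusted p = 0.216 and 0.503). Txnrd1 made up 90.7% ± 0.127 of the reductase level per kilobase in SFRP5, 96.4% ± 0.114 in IL-1β and 74.7% ± 2.19 in control libraries (mean ± SD, n = 3).

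**Figure D2:**
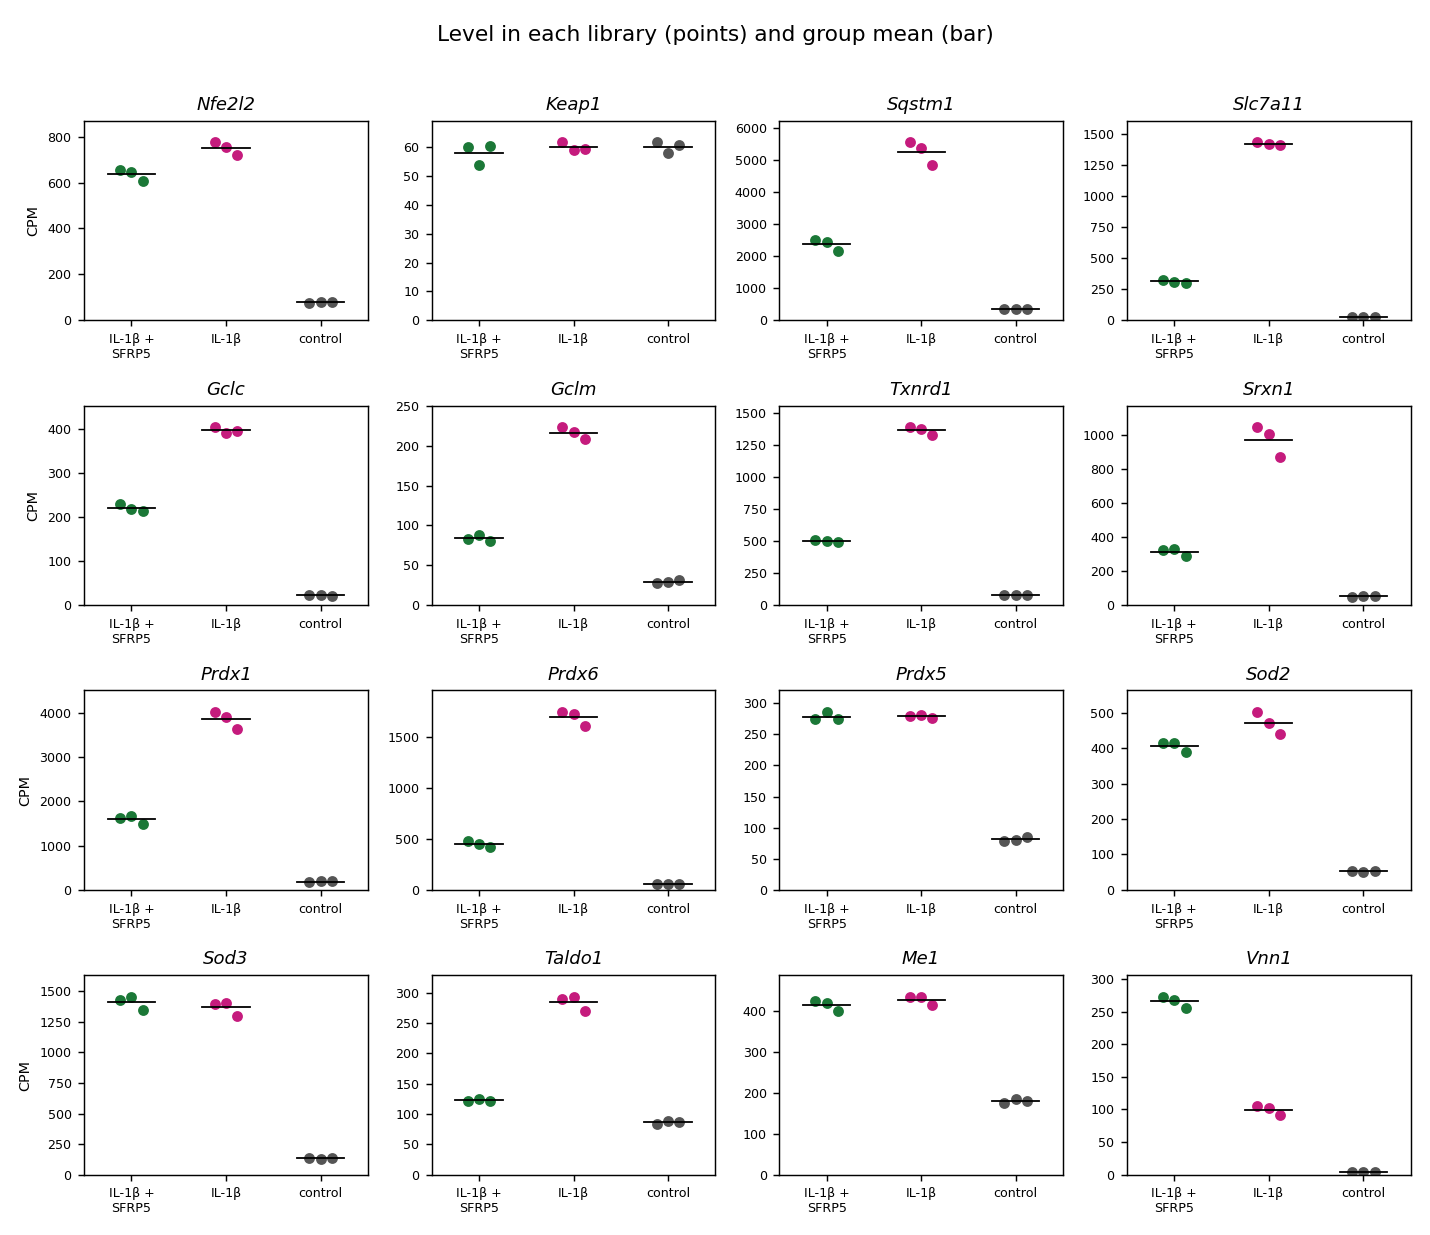
Level in CPM (y axis, from 0, with its own range in each panel) of 16 of the 48 genes in each library, with points for single libraries and a bar for the mean of 3. In panels such as Slc7a11, Txnrd1 and Prdx6 the SFRP5 points lie between those of IL-1β and control, in Prdx5, Sod3 and Me1 they lie close to the IL-1β points, and in Vnn1 they lie above them.

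The peroxiredoxins, which reduce peroxides with thioredoxin or, for Prdx6, with glutathione, split into members that moved strongly and members that hardly moved. Prdx1 (ENSMUSG00000028691), the abundant cytosolic form, was at 1623, 1676 and 1489 CPM in SFRP5, 4019, 3893 and 3629 CPM in IL-1β and 181, 194 and 192 CPM in control libraries. Prdx6 (ENSMUSG00000026701), the form with a single active cysteine, was at 480.5, 452 and 416 CPM in SFRP5, 1745, 1725 and 1608 CPM in IL-1β and 57.5, 57.6 and 60.4 CPM in control libraries. In both genes the groups lay far apart. Prdx1 rose by 4.35 ± 0.05 with IL-1β and fell by 1.27 ± 0.04 with SFRP5, and Prdx6 rose by 4.85 ± 0.05 and fell by 1.91 ± 0.04 (adjusted p at most 8.84e-18 in edgeR's test). Prdx5 (ENSMUSG00000024953), found in mitochondria, peroxisomes and cytosol, rose by 1.78 ± 0.04 with IL-1β. It was at 274, 286 and 275 CPM in SFRP5, 279.6, 281 and 275 CPM in IL-1β and 79.3, 79.9 and 84.7 CPM in control libraries. The SFRP5 and IL-1β values of Prdx5 overlapped, with a log2 difference of −0.00244 and an SE of 0.04 (adjusted p = 0.974). The mitochondrial Prdx3 was at 46.3, 44.6 and 46.9 CPM in SFRP5, 63.9, 67.99 and 62.95 CPM in IL-1β and 60.2, 60.6 and 59.5 CPM in control libraries. It fell by 0.50 ± 0.05 with SFRP5 (adjusted p = 1.88e-08) and so lay below control, by 0.39 ± 0.05 (adjusted p = 1.53e-07). The rise of Prdx3 with IL-1β, 0.11, was just past the threshold (adjusted p = 0.0386), was lost without any of the 3 control libraries or IL-1β library 2 (adjusted p = 0.0716 to 0.111), and turned to −0.04 with upper-quartile scaling. Prdx2, the form known from red cells, fell by 0.41 ± 0.05 with IL-1β to 79.3 ± 3.56 CPM, against 105 ± 4.51 CPM in control libraries, and was at 79.7 ± 5.15 CPM in SFRP5 libraries. Prdx4, the form of the endoplasmic reticulum, fell by 0.26 ± 0.06 with IL-1β and rose by 0.21 ± 0.06 with SFRP5 (adjusted p = 0.00457). Per kilobase, Prdx1 made up 63.02% ± 0.964 of the family in SFRP5, 68.7% ± 0.428 in IL-1β and 28.9% ± 0.426 in control libraries.

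**Figure D3:**
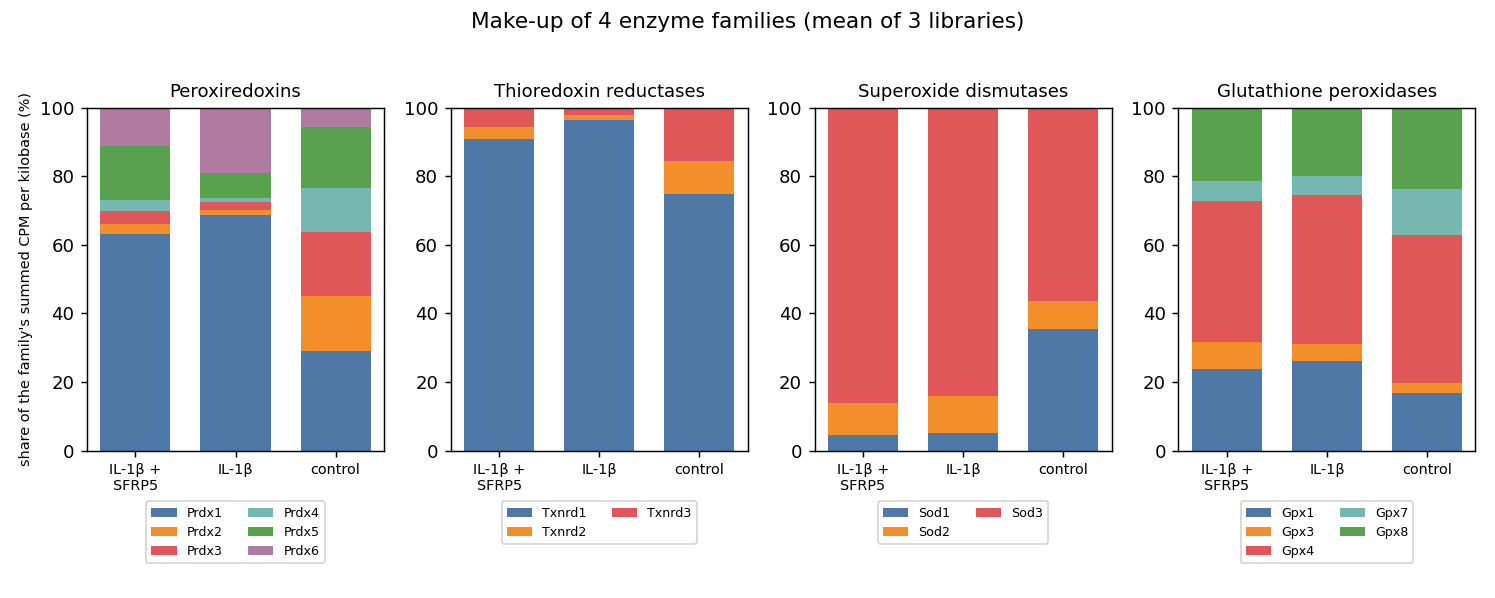
Share (y axis, %) of each gene in the summed CPM per kilobase of 4 enzyme families, as the mean of 3 libraries for IL-1β with SFRP5, IL-1β and control (bars). Prdx1, Txnrd1 and Sod3 take larger shares in both groups with IL-1β than in control, while the make-up of the glutathione peroxidases differs less.

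Of the enzymes that remove superoxide, 2 of 3 rose with IL-1β and changed little with SFRP5. Sod3 (ENSMUSG00000072941), the extracellular superoxide dismutase that binds matrix heparan sulfate, was at 1426, 1456 and 1347 CPM in SFRP5, 1399.8, 1405 and 1301 CPM in IL-1β and 135, 130.3 and 134 CPM in control libraries. The SFRP5 and IL-1β values overlapped, with a difference of 0.04 ± 0.04 (adjusted p = 0.424). Sod2 (ENSMUSG00000006818), the mitochondrial manganese enzyme and a known NF-κB target, was at 415, 415 and 390.1 CPM in SFRP5, 503, 470.5 and 440.4 CPM in IL-1β and 52.5, 51.4 and 53.2 CPM in control libraries. It rose by 3.17 ± 0.05 with IL-1β and fell by 0.21 ± 0.04 with SFRP5 (adjusted p = 0.000477), without overlap. Sod1, the cytosolic copper and zinc enzyme, was at 81.4, 82.98 and 69.6 CPM in SFRP5, 95.8, 86.7 and 88.03 CPM in IL-1β and 84.5, 94.8 and 88.1 CPM in control libraries. Sod1 with IL-1β did not differ from control in the test (adjusted p = 0.812) and turned to −0.13 with upper-quartile scaling (adjusted p = 0.0471). It fell by 0.21 ± 0.06 with SFRP5 (adjusted p = 0.00995), a call lost without IL-1β library 1 (0.072) or SFRP5 library 3 (0.0957). Cat (ENSMUSG00000027187), catalase, which breaks down hydrogen peroxide in peroxisomes, was at 182, 191 and 174 CPM in SFRP5, 277, 292 and 259.8 CPM in IL-1β and 74.9, 74.8 and 75.999 CPM in control libraries. It rose by 1.88 ± 0.05 and fell by 0.60 ± 0.05 with SFRP5 (adjusted p = 1.06e-10). Sod3 made up 86.2% ± 0.209 of the dismutase level per kilobase in SFRP5, 83.99% ± 0.546 in IL-1β and 56.3% ± 1.57 in control libraries.

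All 4 members of the pentose phosphate route and NADPH supply rose with IL-1β, and 3 of them fell with SFRP5. Other genes of the route, named after their values were seen, went both ways with IL-1β: G6pdx, its entry enzyme, rose by 0.96 ± 0.05, whereas Pgls fell by 0.18 ± 0.05, Rpe by 0.31 ± 0.07 and Rpia by 0.52 ± 0.14 (adjusted p at most 0.00472 in edgeR's test). Taldo1 (ENSMUSG00000025503), transaldolase, was at 122, 125 and 122 CPM in SFRP5, 289.6, 293 and 269 CPM in IL-1β and 83.9, 88.5 and 87.4 CPM in control libraries. It fell by 1.21 ± 0.04 with SFRP5 (adjusted p = 5.43e-17) and remained 0.50 ± 0.05 above control. Pgd (ENSMUSG00000028961), phosphogluconate dehydrogenase, which yields NADPH, was at 439.7, 440.4 and 426 CPM in SFRP5, 716, 724 and 635 CPM in IL-1β and 80.5, 84.5 and 81.1 CPM in control libraries. Pgd had the largest rise of the branch, 3.07 ± 0.05, and fell by 0.67 ± 0.04 with SFRP5 (adjusted p = 5.33e-12). Tkt, transketolase, fell by only 0.19 ± 0.04 with SFRP5 (adjusted p = 0.000282), to 331 ± 6.49 CPM in SFRP5, against 377 ± 7.64 CPM in IL-1β and 149 ± 1.56 CPM in control libraries. Me1 (ENSMUSG00000032418), the cytosolic malic enzyme, was at 424, 420.03 and 399 CPM in SFRP5, 433, 435 and 415 CPM in IL-1β and 176, 185 and 181 CPM in control libraries. SFRP5 and IL-1β values of Me1 overlapped, and their difference of −0.05 ± 0.04 did not pass the test (adjusted p = 0.402). Me1 and Prdx1 are the members whose windows above hold TGACTCAGC, and their SFRP5 changes were −0.05 ± 0.04 and −1.27 ± 0.04.

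The branch of detoxifying enzymes, in which Vnn1 was also placed, divided with SFRP5. Vnn1, Ephx1 and Cbr1 rose and the other 3 fell, or 50% each, against 15.6% and 15.7% of all genes tested. Nqo1 (ENSMUSG00000003849), the quinone reductase used as a readout of NRF2, was at 153, 156 and 136 CPM in SFRP5, 255, 239 and 235 CPM in IL-1β and 61.8, 66.4 and 65.7 CPM in control libraries. It rose by 1.91 ± 0.05 and fell by 0.71 ± 0.05 with SFRP5 (adjusted p = 2.36e-11). Akr1b8, an aldo-keto reductase with close paralogs, was at 49.7, 52.8 and 47.04 CPM in SFRP5, 141, 125 and 124 CPM in IL-1β and 9.84, 7.40 and 9.23 CPM in control libraries, and fell by 1.38 ± 0.06 with SFRP5 (adjusted p = 5.74e-15). Cbr3, a carbonyl reductase, overlapped its control values with SFRP5, at 4.38, 5.52 and 3.48 CPM in SFRP5, 9.47, 9.44 and 7.96 CPM in IL-1β and 4.49, 3.88 and 3.45 CPM in control libraries. Its SFRP5 libraries differed from control by 0.17 ± 0.18 (adjusted p = 0.392). Cbr1, its paralog, was at 26.7 ± 3.11 CPM in SFRP5, 22.6 ± 1.40 CPM in IL-1β and 19.9 ± 1.47 CPM in control libraries. With IL-1β it differed by 0.19 ± 0.09 (adjusted p = 0.0579), and was called with RLE factors (0.0356), without the filter (0.0291), with only those 6 libraries (0.036) and when control library 3 (0.0309), IL-1β library 3 (0.0182), SFRP5 library 2 (0.0329) or SFRP5 library 3 (0.0319) was left out. Its SFRP5 and IL-1β values overlapped. The rise of Cbr1 with SFRP5, 0.24 ± 0.09 (adjusted p = 0.0368), was lost with DESeq2 (0.0749) and without IL-1β library 2 (0.065) or 3 (0.145) or SFRP5 library 1 (0.146) or 2 (0.17). Ephx1 (ENSMUSG00000038776), the microsomal epoxide hydrolase, was raised in both comparisons. It was at 368, 372 and 355 CPM in SFRP5, 305, 312 and 293 CPM in IL-1β and 182, 185 and 184 CPM in control libraries, a rise of 0.72 ± 0.04 with IL-1β and 0.27 ± 0.04 more with SFRP5 (adjusted p = 5.68e-06). Vnn1 (ENSMUSG00000037440), a pantetheinase that releases cysteamine and affects glutathione stores, showed the same order more strongly. Its values were 273, 268 and 256 CPM in SFRP5, 106, 103 and 91.3 CPM in IL-1β and 4.24, 3.79 and 4.52 CPM in control libraries. Vnn1 rose by 4.58 ± 0.08 with IL-1β (adjusted p = 1.07e-25) and by another 1.41 ± 0.05 with SFRP5 (adjusted p = 5.5e-17), so that SFRP5 libraries were 63.7-fold above control.

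Set side by side, the branches differed in the size of both changes. The median log2 changes with IL-1β were 3.59 for glutathione supply, 2.88 for the regulators, 2.52 for superoxide and catalase, 1.58 for thioredoxin, 1.55 for detoxification, 1.53 for pentose phosphate, 0.94 for peroxiredoxins, 0.33 for glutathione transferases and −0.38 for glutathione peroxidases. With SFRP5 against IL-1β the medians were −0.86 for glutathione supply, −0.69 for the regulators, −0.50 for thioredoxin, −0.43 for pentose phosphate, −0.25 for peroxiredoxins, −0.24 for detoxification, −0.21 for superoxide and catalase, −0.08 for transferases and 0.13 for glutathione peroxidases. Over all tested genes the median with SFRP5 was 0.01. No test was made of a difference between branches. The summed level of the 48 genes was 11580 to 12515 CPM in SFRP5, 21197 to 23267 CPM in IL-1β and 3026 to 3125 CPM in control libraries. Sqstm1, Prdx1 and Prdx6 weighed most in this sum in IL-1β, with mean levels of 5258, 3847 and 1693 CPM. In SFRP5 libraries their means were 2380, 1596 and 450 CPM. Of the 48 genes 24 fell and 7 rose with SFRP5. The 5 supply genes together were at 883 ± 30.3 CPM in SFRP5, 2451 ± 37.1 CPM in IL-1β and 123 ± 0.896 CPM in control libraries. Superoxide and catalase genes were at 2077 ± 85.5 CPM in SFRP5, 2207 ± 102 CPM in IL-1β and 349.9 ± 2.36 CPM in control libraries (SD, n = 3). Sod3 alone gave 1410 CPM of that sum in SFRP5 and 1369 CPM in IL-1β, while Cat fell by 0.60 ± 0.05 with SFRP5.

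**Figure D4:**
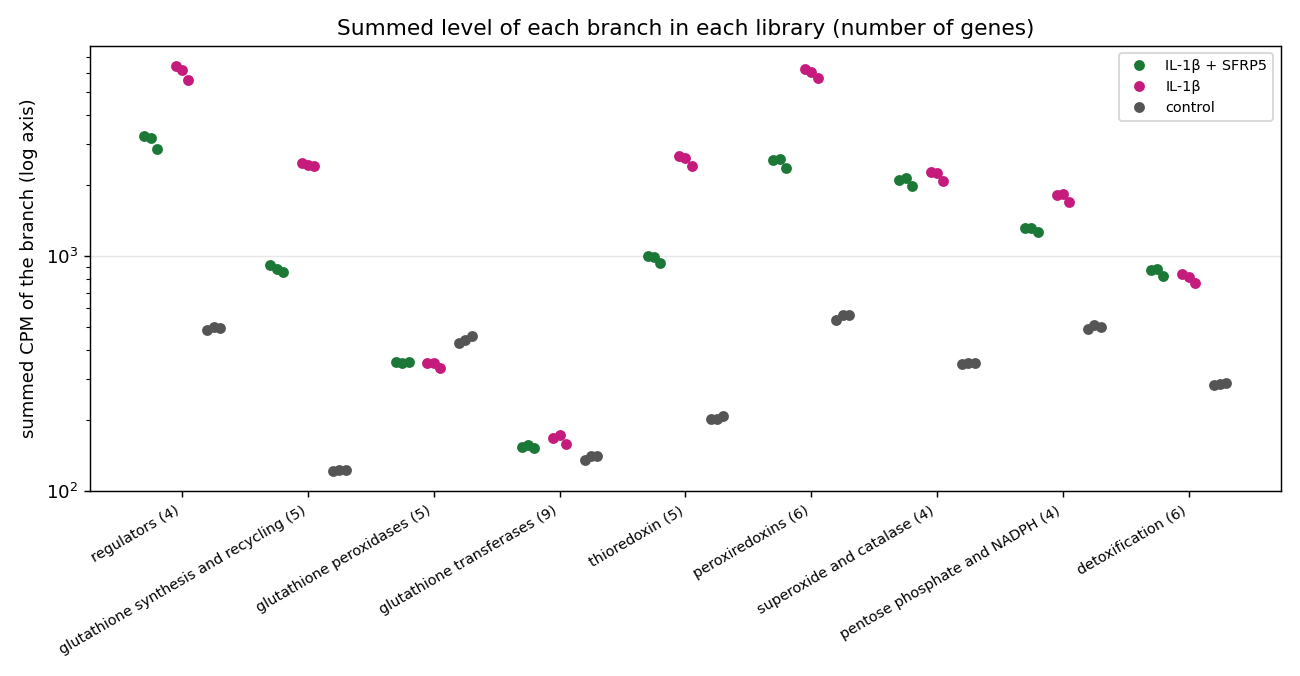
Summed CPM of each branch (log y axis) in each of the 9 libraries, with the number of genes in brackets. Points for IL-1β with SFRP5 lie between IL-1β and control for glutathione supply, thioredoxin, peroxiredoxins and pentose phosphate, and near the IL-1β points for superoxide and catalase.

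Compared with control, SFRP5 libraries still had 35 of the 48 genes higher and 8 lower, where 37.3% of all genes tested were higher and 39% lower. At least 2-fold higher were 26, or 54.2% of the members, against 17.2% of all genes, and 3 were at least 2-fold lower, against 19%. The groups did not overlap for 43 members, and for 78.2% of all genes. Slc7a11 remained 11.3-fold above control, Gclc 9.80-fold, Gclm 2.87-fold, Txnrd1 6.46-fold, Prdx6 7.69-fold and Nqo1 2.29-fold. The 8 lower genes were Gpx4, Gpx7, Gpx8, Gstm5, Gstt1, Prdx2, Prdx3 and Sod1. The 5 that did not pass the test were Keap1, Mgst2, Mgst3, Prdx4 and Cbr3. With upper-quartile scaling Keap1 (−0.18, adjusted p = 0.00298) and Prdx4 (−0.18, adjusted p = 0.00344) were called lower, and the rises of Gpx1 (0.02, adjusted p = 0.706) and Gsto1 (0.10, adjusted p = 0.0931) were lost. Gpx1 was also lost without control library 1 (adjusted p = 0.0803) and Sod1 without SFRP5 library 3 (adjusted p = 0.0842).

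Of 79 other genes of the same pathways, 69 could be tested. With IL-1β 32 rose, or 46.4%, and 30 fell, or 43.5%, against 38.5% and 40.4% of all genes tested. With SFRP5 14 rose, or 20.3%, and 23 fell, or 33.3%, against 15.6% and 15.7% of all genes. Of 6 haem and iron targets 5 rose and 1 fell with IL-1β, and 5 fell and 1 rose with SFRP5. Hmox1, haem oxygenase, which frees iron from haem, was at 3582 ± 173 CPM in SFRP5, 3982 ± 331 CPM in IL-1β and 255 ± 3.01 CPM in control libraries. It fell by only 0.15 ± 0.04 with SFRP5 (adjusted p = 0.00835 in edgeR's test), and its SFRP5 and IL-1β values overlapped. Fth1, the ferritin heavy chain, reached 12684 ± 406 CPM in SFRP5 and 15998 ± 722 CPM in IL-1β, against 707 ± 21.2 CPM in control libraries. Blvra, a biliverdin reductase, ran against them with a drop of 1.46 ± 0.14 with IL-1β. Among 7 partners of NRF2 and parts of its degradation 6 rose with IL-1β. The small MAF protein Maff, with which NRF2 pairs on DNA, was at 133 ± 4.35 CPM in SFRP5, 155 ± 3.43 CPM in IL-1β and 1.82 ± 0.671 CPM in control libraries, and Mafk rose by 1.94. Rbx1, a subunit of the ligase that degrades NRF2, fell by 0.23 ± 0.07 (adjusted p = 0.00272), with overlapping libraries.

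Of 28 further glutathione genes 13 rose, or 46.4%, and 12 fell, or 42.9%, with IL-1β. Among all genes tested 38.5% rose and 40.4% fell in this comparison. Gsta1 and Gsta2, near-identical alpha-class transferases whose reads cannot be split with certainty, had 286 and 14 counts over the SFRP5 libraries, 1459 and 74 over the IL-1β libraries and 9 and 0 over the control libraries. Gsta2 was thus at least 30.1-fold higher with IL-1β, a bound set with 3 counts over the control group. Gstm7 had 7 counts in SFRP5, 0 in IL-1β and 63 in control libraries, at least 17.2-fold lower with IL-1β. Ggt5, a gamma-glutamyl transferase that breaks down extracellular glutathione conjugates, fell by 3.29 ± 0.40. In the thioredoxin list 3 of 7 rose, or 42.9%, and 4 fell, or 57.1%. Txnip, the inhibitor of thioredoxin, was at 3.69, 3.25 and 3.54 CPM in SFRP5, 2.25, 1.39 and 1.71 CPM in IL-1β and 42.5, 48.2 and 44.04 CPM in control libraries, a drop of 4.65 ± 0.12 with IL-1β and a rise of 0.98 ± 0.18 with SFRP5 (adjusted p = 0.000156). Msra, which repairs oxidised methionine, rose by 2.53 with IL-1β, Nxn, a thioredoxin relative, rose by 1.36, and Msrb2 fell by 1.67. Of 10 tested NADPH sources 3 rose, or 30%, and 6 fell, or 60%. Both NADP-dependent isocitrate dehydrogenases fell with IL-1β. Idh2, the mitochondrial one, was at 9.33 ± 0.990 CPM in SFRP5, 5.37 ± 0.564 CPM in IL-1β and 71.8 ± 5.21 CPM in control libraries, and cytosolic Idh1 was at 14.1 ± 1.22 CPM in SFRP5, 12.8 ± 0.507 CPM in IL-1β and 81.1 ± 1.35 CPM in control libraries. Nadk2 and Nadk, which make NADP from NAD, rose by 2.74 and 1.11 with IL-1β. Nox4, an NADPH oxidase that makes hydrogen peroxide, had 86 counts in SFRP5, 24 in IL-1β and 162 in control libraries, and Ccs, the copper chaperone of Sod1, fell by 0.83 with IL-1β. Of 6 genes for making selenoproteins or carrying selenium, 4 fell, or 66.7%, and 1 rose, or 16.7%, with IL-1β. Gpx1, Gpx3, Gpx4 and the thioredoxin reductases depend on selenoprotein synthesis, and of these only Gpx4 fell with IL-1β. Selenop, a plasma selenium carrier, fell by 2.02, Sephs2, which makes selenophosphate, fell by 0.73, and Secisbp2, which binds selenoprotein mRNAs, rose by 0.79.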

How the data were processed

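The deposited values are gene counts, whole numbers not scaled between libraries, in 1 table. Per the labels' protocols, libraries came from a directional kit, fastp did the trimming, STAR the alignment to mm10 and RSEM the quantification. Tool versions, rounding and strand setting are not given in the sources used. The gene length in the same deposited table, of no stated annotation, was used for levels per kilobase. Columns were matched to samples by letter and final digit.

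Counts were tested with edgeR 4.0.16 (R 4.3.3): filterByExpr by group, TMM factors, quasi-likelihood test over all 9 libraries, Benjamini-Hochberg adjustment over 15502 genes, and a call at an adjusted p under 0.05. The SE is the log2 change divided by the root of F. The test was also run on simulated counts in which few genes changed. In these data most tested genes were called with IL-1β, so that run does not bear on the calls here. Alternatives were RLE and upper-quartile factors, no filter, DESeq2 1.42.0, robust dispersions, 6 libraries, a replicate block and leaving out each library. Floors and bounds against 0 counts cover counting error only, while SD and SE include the spread between libraries.

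The 48 members, branches and lists were chosen with earlier results of these data known. Every member is described. From other lists, at most the 2 largest called increases and decreases with IL-1β are named, with G6pdx, Pgls, Rpe and Rpia as exceptions. A gene that this rule would name is not reported here. The table's coordinates were not used. Libraries within groups correlated with r of 0.989 to 0.992 across genes, and differed by more than sampling noise.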

Additional observations from a re-analysis of the deposited data

How the results depend on the processing

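Counts of called members and of all called genes stayed within 1.5 times their values under every alternative run. Members rose in 34 to 37 and fell in 7 to 10 cases for IL-1β against control, and with SFRP5 against IL-1β 6 or 7 rose and 23 or 24 fell. Deviations of same-numbered libraries from their group means correlated with r of −0.04 to 0.04 across genes. Noise of low-count genes also lowers this r, so it cannot show whether the numbers pair libraries. With the replicate block 36 members rose and 8 fell with IL-1β, and 7 rose and 24 fell with SFRP5. Against control 35 rose and 8 fell. All these counts were the same without the block. Upper-quartile factors moved the median of all genes by −0.15 with IL-1β and −0.13 with SFRP5 against control. Signs turned only for small differences that missed or barely passed the threshold, and the cause was not tested. For IL-1β against control Keap1 became 0.0181 with RLE factors, 0.0199 without the filter, 0.00393 with 6 libraries and 0.0181 with DESeq2, and upper-quartile factors gave −0.0352 for Prdx3 and −0.131 for Sod1. For SFRP5 against IL-1β Prdx2 became −0.00279 with RLE factors and −0.00274 with DESeq2, and Prdx5 became 0.0112 with upper-quartile factors. For SFRP5 against control Mgst2 became −0.117 with upper-quartile factors. Leaving out each library gave −0.0309 to 0.0343 for Keap1 and −0.0227 to 0.0682 for Sod1 with IL-1β. With SFRP5 against IL-1β it gave −0.0715 to 0.00523 for Keap1, −0.13 to 0.0162 for Gsta4, −0.0271 to 0.0603 for Prdx2 and −0.0223 to 0.00857 for Prdx5. With SFRP5 against control it gave −0.0744 to 0.026 for Keap1 and −0.178 to 0.292 for Mgst2. The shallowest genes, Gstt1, Mgst2 and Mgst3, are limited by depth.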
